A study of Mus musculus with 6 samples.

Results

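The collagen genes of primary mouse embryonic fibroblasts (MEFs) are described here by their RNA levels. Members are all genes of the table whose symbol is Col, a number, the letter a and a number, and 44 of the 25039 genes in the table met that rule. RNA-Seq was done on 6 libraries, 3 from WT MEFs and 3 from MEFs null for Anp32e (Anp32e-/-), which encodes a histone chaperone that removes the histone variant H2A.Z from chromatin. Cells of both genotypes were primary, were used below passage 8 and grew in the same serum-containing medium as plated cultures. The null is a genotype of the embryo and so is not limited to fibroblasts, and the number of embryos behind the cultures is not given in the sources used here. The expression value of each transcript is the authors' mean over all 6 libraries, in normalized counts, with no SD and no value per genotype. Levels below therefore describe both genotypes together, and no difference between WT and Anp32e-/- MEFs is given.

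Collagens are extracellular matrix proteins in which 3 chains wind into a triple helix. Glycine, the smallest residue, fills 1 in every 3 positions of the helical part, because only it fits in the crowded centre of the helix. Fibrillar collagens form the banded fibrils of skin, bone, tendon and cartilage. Network collagens form sheets such as those of basement membranes, FACITs sit on the surface of fibrils, beaded collagens form microfibrils, and membrane collagens span the plasma membrane. Fibroblasts are known as a main source of fibrillar collagen in connective tissue.

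The repeat can be read in the genes themselves. The stretches below come from 4 fibrillar genes. Each is the first exon of exactly 54 bases that lies inside the longest helical run and starts on a glycine codon of that run. They are shown because this exon length recurs in the fibrillar genes. Each is written 5′ to 3′ on the strand of the gene, in frame, with positions on GRCm38 and with glycine codons (GGN) in capitals. They were read from GENCODE transcripts.
Col1a1, exon 8 of 51, chr11:94939904-94939957 on the + strand: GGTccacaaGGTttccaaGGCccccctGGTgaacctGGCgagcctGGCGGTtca
Col1a2, exon 8 of 52, chr6:4515481-4515534 on the + strand: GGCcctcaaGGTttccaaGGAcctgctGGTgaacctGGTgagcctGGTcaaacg
Col3a1, exon 6 of 51, chr1:45325360-45325413 on the + strand: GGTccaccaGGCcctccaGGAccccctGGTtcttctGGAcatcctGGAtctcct
Col5a2, exon 10 of 54, chr1:45422386-45422439 on the - strand: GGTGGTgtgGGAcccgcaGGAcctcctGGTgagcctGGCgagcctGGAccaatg
By this choice every exon shown starts with a glycine codon, and glycine holds 1 in every 3 codons from there. Col1a1 and Col5a2 each have a further glycine codon outside that rhythm.

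In the network genes the rhythm breaks more often. The next stretches surround the end of the longest run of Col10a1 and of Col8a1, the 2 short-chain network genes with the highest levels, and have glycine codons in capitals.
Col10a1, chr10:34395450-34395503 on the + strand: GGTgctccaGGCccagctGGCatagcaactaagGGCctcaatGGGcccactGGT
Col8a1, chr16:57627517-57627570 on the - strand: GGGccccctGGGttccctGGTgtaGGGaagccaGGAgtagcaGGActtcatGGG
In both genes the run stops in the middle of the stretch, and glycine recurs in another register. In Col10a1 the new register starts after the end of the run. In Col8a1 it starts with a glycine codon inside the last unit of the run.

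All 44 members hold such a run in their coding sequence. The glycine repeat is part of what defines a collagen, so this is a description and no independent check. The longest run had a median of 338 glycine units in the 11 fibrillar genes, against 45 in the network, 57 in the FACIT, 45 in the beaded and 41.5 in the membrane genes. Of the fibrillar genes, 9 had runs of 337 to 344 units, while Col24a1 had 216 and Col27a1 217. The longest run outside the fibrillar class was 113 units, in the 3 chains of collagen IX and in Col22a1. Exons of 54 bases numbered 21 to 33 in each fibrillar gene, 4 to 28 in each FACIT gene and at most 3 in each network gene. Col8a1, Col8a2 and Col10a1 had none, since most of their coding sequence lies in 1 large exon. Col26a1 had the shortest run, at 23 units. Of 20522 other genes with a coding transcript, 18 had a run of at least 23 units, which is 0.0877% of them. Among these were Colec12 and Scara3, which encode scavenger receptors with a collagen-like domain and had means of 3453 and 1428 normalized counts.

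**Figure D1:**
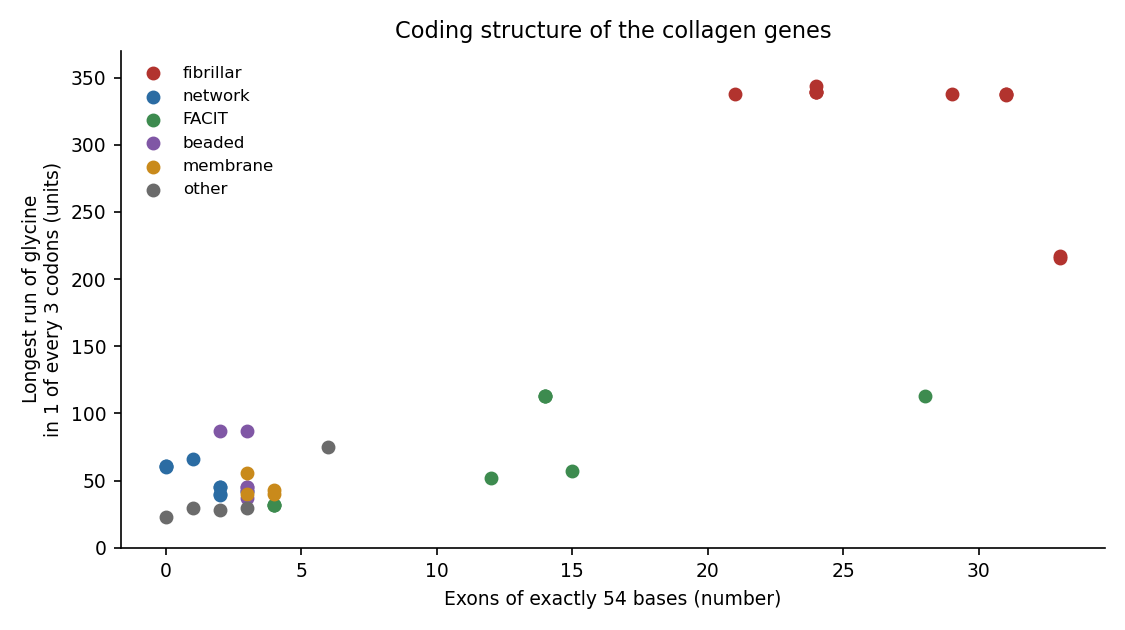
Number of exons of exactly 54 bases (x axis) against the longest run of glycine at 1 in every 3 codons, in units of 3 codons (y axis), with 1 point per collagen gene coloured by class (points of genes with equal values coincide). The 11 fibrillar genes lie at or above 216 units, and all genes of the other classes lie at or below 113.

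Of the 44 collagen genes, 33 had a mean of at least 10 normalized counts, 9 had reads but a lower mean, and Col9a1 and Col13a1 had no reads. For comparison, 56.9% of all genes in the table had a mean of at least 10, and 75% of the collagen genes did. A mean of at least 1000 was found for 16 collagen genes (36.4%), and for 28.8% of all genes in the table. To compare genes of unlike length, each mean was divided by the length of the transcript, which gives a mean normalized count per kilobase (kb). On this scale the 16 genes lay at 372 per kb or higher and held 98.6% of the summed collagen level. The other collagen genes lay at 113 per kb or lower, so that a gap of 3.29-fold separated the sets. The median gene with reads had 129 per kb. The same 16 collagen genes lay above that median, 26 with reads lay below it, and 6 were among the highest 10% of genes with reads. Without division by length 13 were among the highest 10%, and per kb among genes with a mean of at least 10 it was 4. Collagen genes made up 0.474% of the summed mean of all genes, with 1 transcript per gene, and 0.126% of the summed level per kb of genes with reads and a length.

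**Figure D2:**
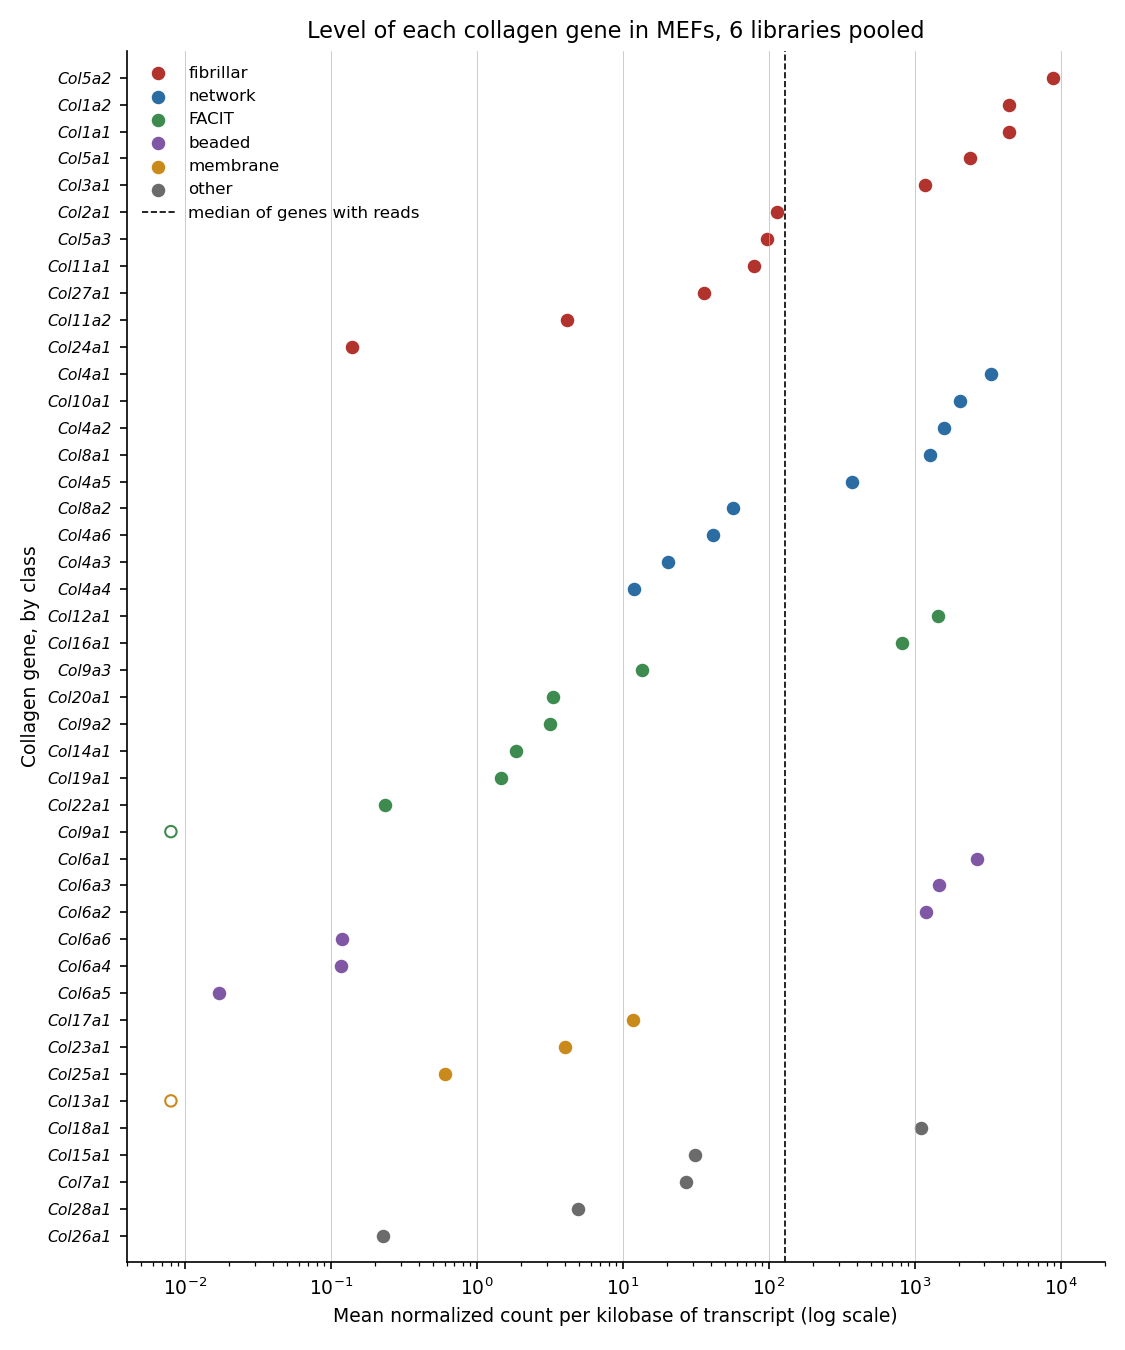
Mean normalized count per kilobase of transcript, pooled over the 6 libraries (x axis, log scale), for each of the 44 collagen genes grouped by class. Open circles at the left edge are the 2 genes with no reads, the dashed line is the median of all genes with reads (129 per kb), and 16 collagen genes lie to its right.

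The fibrillar class held most of the collagen RNA. Its 11 genes made up 55.2% of the summed level per kb, and 10 of them had a mean of at least 10. Col5a2, which encodes the alpha2 chain of collagen V, a minor fibril component that sets fibril diameter, was the highest of all collagen genes. Its mean was 58600 normalized counts, or 8845 per kb, which was 22.6% of the summed collagen level. Col1a1 and Col1a2 encode the chains of collagen I, the main collagen of skin and bone. Their means were 26142 and 23592, or 4408 and 4411 per kb. Col5a1, which pairs with the Col5a2 chain, had a mean of 20223, or 2406 per kb. Col3a1, the chain of the homotrimeric collagen III of skin and vessels, had a mean of 6580, or 1183 per kb. These 5 genes were separated from the next fibrillar gene by a wide step.

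The cartilage-type fibrillar chains were present at lower levels. Col2a1, the main chain of cartilage fibrils, had a mean of 577 normalized counts, or 113 per kb. Col11a1, which is found in cartilage fibrils and also outside cartilage, had a mean of 611, or 79.7 per kb. Its partner Col11a2 had a mean of only 21.4, or 4.17 per kb. Col5a3, another collagen V chain, had a mean of 594, or 97.1 per kb. Of the fibrillar genes of a more distant branch, Col27a1 had a mean of 273 and Col24a1 a mean of 0.992.

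The network class held 22.3% of the summed level, and all 9 of its genes had a mean of at least 10. Col4a1 and Col4a2 encode the chains of the common basement membrane collagen IV. Their means were 21645 and 10149, or 3337 and 1573 per kb. The other collagen IV chains are known for a narrower distribution, in kidney, lung and eye among others. Of these, Col4a5 had a mean of 2431 (372 per kb), Col4a6 275 (41.4 per kb), Col4a3 173 (20.3 per kb) and Col4a4 120 (11.9 per kb). Col8a1, a short chain of vascular and corneal matrix, had a mean of 6447, or 1262 per kb, and its partner Col8a2 a mean of 247, or 57.1 per kb. Col10a1, known as a marker of hypertrophic chondrocytes, had a mean of 6424, or 2053 per kb. That placed it above Col3a1 and Col4a2 per kb.

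Markers of cartilage and bone are given beside it. Of the 7 chondrocyte markers 5 had a mean of at least 10, as did 56.9% of all genes in the table. Sox9, the transcription factor of the chondrocyte lineage, had a mean of 233 (56.4 per kb), and the matrix genes Matn3 and Comp had means of 94.98 and 80.6. Hapln1 had a mean of 19.3, Acan, which encodes the main cartilage proteoglycan, of 14.1, Ucma of 5.78 and Matn1 of 0.748. The median of this list was 6.82 per kb and its summed mean 449. Of the 5 osteoblast markers 1 had a mean of at least 10, Phex at 32.7. Sp7 had a mean of 7.95, Bglap of 2.42 and Dmp1 of 0.536, and Ibsp had no reads. The Col10a1 transcript shares 18 of its 3130 exonic bases with exons of Nt5dc1 on the opposite strand, which had a mean of 622. Overlap with introns of other genes was not examined. The part of other cell types in these levels was not tested, and in a bulk sample fewer cells of a type and less RNA per cell cannot be told apart.

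The beaded class held 13.6% of the summed level, all but a trace in 3 genes. Col6a1, Col6a2 and Col6a3 encode the chains of the classical collagen VI, which forms microfibrils around cells. Their means were 10977, 4677 and 14798, or 2677, 1184 and 1464 per kb. The related chains Col6a4, Col6a5 and Col6a6, which can take the place of the Col6a3 chain, had means of 0.867, 0.159 and 1.04.

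The FACIT class held 5.82% of the summed level. Col12a1, whose product binds collagen I fibrils in tendon and ligament, had a mean of 16560, or 1439 per kb. Col16a1, which lies on several kinds of fibrils, had a mean of 4230, or 813 per kb. The other FACIT genes were far lower. Col9a3, a cartilage collagen IX chain, had a mean of 38.7, its partner Col9a2 a mean of 9.22, and Col9a1, the third chain, had no reads. For Col9a1 and Col13a1, a count of 0 over the 6 libraries allows up to 3 reads in all, or a mean of about 0.5 normalized counts, as counting error only. Col14a1, a fibril-associated collagen of skin and tendon, had a mean of 10.5 and so was at the edge of the minimum. Col20a1 had a mean of 16.6, Col19a1 of 6.26 and Col22a1 of 2.07.

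The membrane class held 0.0419% of the summed level. Col17a1, the hemidesmosome collagen of the skin, was its highest gene, with a mean of 65.6, or 11.7 per kb. Col23a1 had a mean of 22.8 and Col25a1 a mean of 1.59, while Col13a1 had no reads. Of the 5 remaining genes, Col18a1, a basement membrane proteoglycan and the source of endostatin, was the only one with a mean of at least 1000, at 5586, or 1103 per kb. Col7a1, the chain of anchoring fibrils, had a mean of 249 (27.02 per kb) and Col15a1, the relative of Col18a1, a mean of 160 (30.9 per kb). Col28a1 had a mean of 20.7 and Col26a1 a mean of 0.634.

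**Figure D3:**
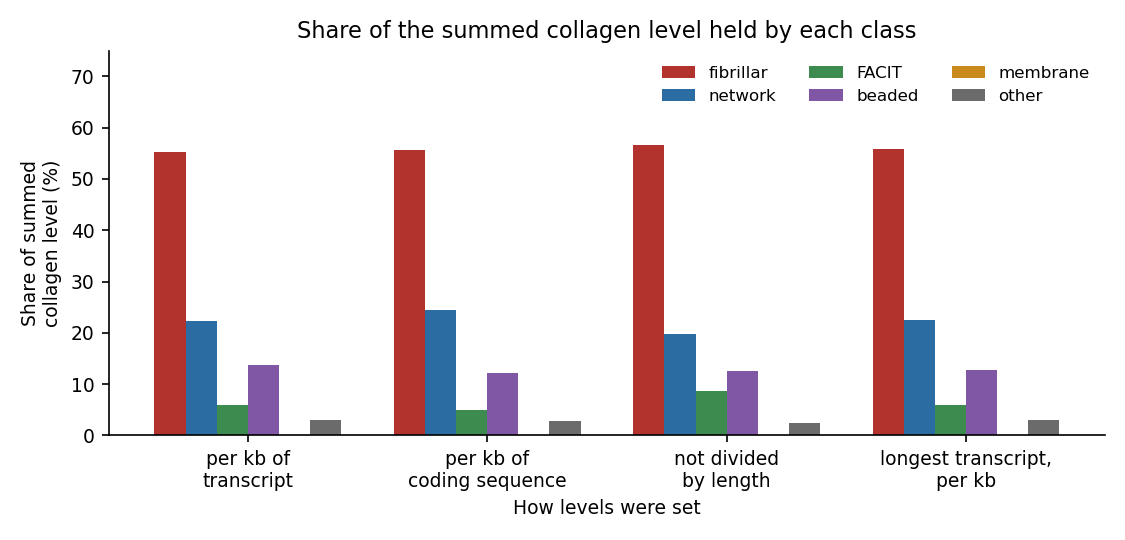
Share of the summed collagen level (y axis, percent) held by each class, with levels set in 4 ways (x axis: per kb of transcript, per kb of coding sequence, not divided by length, and with the longest transcript of each gene). The fibrillar bars stand between 55.2% and 56.6% and are the highest in each set, followed by the network bars at 19.8% to 24.5%.

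Chains that assemble into 1 molecule were set side by side. Intervals in this paragraph are 95% exact binomial limits on the reads behind the means and cover counting error only, not the spread between cultures. The reads of a gene were taken as 6 times its mean. Col1a1 and Col1a2 were at a ratio of 0.999 per kb (0.992 to 1.01), which became 1.05 per kb of coding sequence and 1.11 without division by length. Collagen I is mostly built of 2 alpha1 chains and 1 alpha2 chain. In collagen V, Col5a2 lay 3.68-fold above Col5a1 (3.65 to 3.70), and Col5a1 lay 24.8-fold above Col5a3 (24.0 to 25.6). In collagen IV, Col4a1 lay 2.12-fold above Col4a2 (2.10 to 2.14), Col4a3 1.70-fold above Col4a4 (1.55 to 1.87) and Col4a5 8.99-fold above Col4a6 (8.54 to 9.47). In collagen VI, Col6a1 lay 2.26-fold above Col6a2 (2.23 to 2.29) and 1.83-fold above Col6a3 (1.81 to 1.85). With the longest transcript of each gene the ratio of Col6a1 to Col6a2 was 3.49. The order of Col6a1 and Col6a3 turned without division by length (0.742). Wide ratios were also those of Col8a1 to Col8a2, at 22.1 (20.98 to 23.3), and of Col11a1 to Col11a2, at 19.1 (16.002 to 22.9). Col9a3 lay 4.31-fold above Col9a2 (3.22 to 5.93). Col2a1 and Col11a1, which share cartilage fibrils, were at a ratio of 1.42 (1.35 to 1.49), which became 0.944 without division by length.

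**Figure D4:**
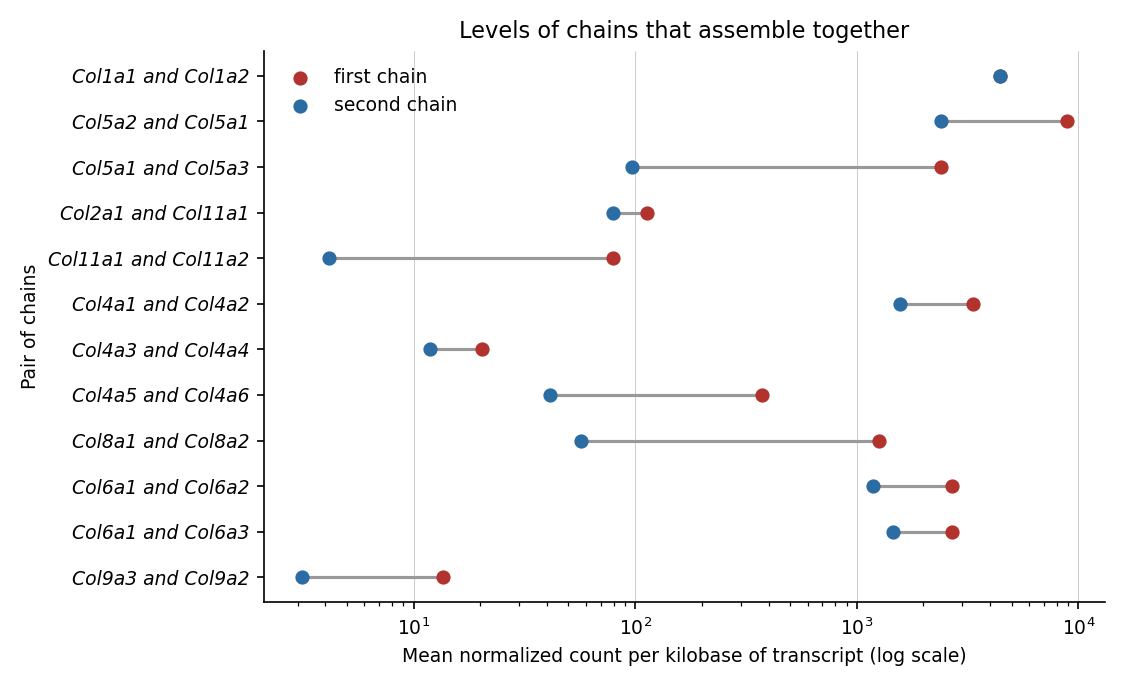
Levels of 12 pairs of chains, as mean normalized count per kilobase of transcript pooled over the 6 libraries (x axis, log scale). Red points are the first and blue points the second chain named at the left, and the joining line spans 22.1-fold for Col8a1 and Col8a2, while the points of Col1a1 and Col1a2 coincide (ratio 0.999).

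Several partners are also neighbours in the genome. Col4a1 (chr8:11198423-11312826, - strand) and Col4a2 (chr8:11312805-11449287, + strand) are read in opposite directions, and their first exons overlap by 22 bases. Col4a3 and Col4a4 on chr1 lie head to head with 71 bases between them, and Col4a5 and Col4a6 on chrX with 1308 bases. The members of each of these pairs stood at the collagen IV ratios given above. Col3a1 and Col5a2 lie tail to tail on chr1, 24614 bases apart, and Col3a1 stood at 0.134 of the level of Col5a2 per kb. Promoter windows of 300 bases around the RefSeq starts (GRCm38.p6) were at hand for 35 of the 44 genes, in 38 windows. Col1a1, Col2a1, Col4a3, Col5a2, Col9a3, Col12a1, Col14a1, Col22a1 and Col26a1 had no window and were not searched. The GC box GGGCGG, searched on both strands, was in 60.5% of the 38 windows and in 35.7% of all 32851 promoter windows. The TATA box TATAAA was in 13.2% against 13.6%, and CCAAT in 34.2% against 37.4%. The windows of Col4a1 and Col4a2 overlap, as do those of Col6a2, and each of them holds the GC box. Genes with the GC box ran from Col6a5, with a mean of 0.159, to Col1a2, with a mean of 23592. Among the genes searched, the 5 with TATAAA were Col3a1, Col10a1, Col11a2, Col13a1 and Col17a1, whose means ran from no reads to 6580 normalized counts. A match of these letters is a description and no binding site.

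The table holds 61 collagen transcripts, with more than 1 for 16 genes. In 13 of these genes, which include the 2 with no reads, the lowest of the transcripts was within 2% of the highest. The 3 Col25a1 transcripts had the same mean, 1.59, although their lengths run from 2624 to 6701 bases. How reads shared by transcripts of a gene were counted is not given in the sources used here. These means therefore cannot be read as separate measurements of each transcript. The means of the 2 Col4a1 transcripts were 21645 and 21644, and those of Col18a1 were 5586 and 5581. A larger gap was seen for Col6a2, whose transcripts had means of 4677 and 3572, and for Col6a3, at 14798 and 13757. The remaining gene was Col6a6, with 1.04 for one transcript and no reads for the other. For Col2a1 the transcripts had means of 577 and 567. Of the members, 12 have exons that overlap those of another annotated gene, and in 2 of them the overlap is over 5% of the transcript. These are Col9a3, with 8.08% over Tcfl5 on the opposite strand (mean 63.0), and Col4a3, with 6.58% over a noncoding gene. The strand setting of the counting is not given in the sources used here, so reads of such overlaps cannot be assigned with certainty.

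For members with a mean under 40, the mean could be split into whole reads of the 6 libraries, because each library adds a fixed step per read. The libraries carry no genotype in this split and are named a to f here in order of falling size factor, from 1.13 to 0.909. All 15 such members gave 1 set of reads, and 8 of them had reads in every library. Col9a3 had 50, 59, 18, 41, 35 and 32 reads in libraries a to f, so every library held it. Col23a1 had 24, 28, 23, 13, 25 and 24 reads, Col11a2 had 18, 14, 35, 11, 25 and 25, and Col28a1 had 10, 21, 39, 8, 33 and 13. These 4 genes were spread over all libraries, with no more than 31.5% of the reads in any of them. Col20a1 had 23, 24, 16, 21, 8 and 10 reads and Col19a1 had 3, 6, 5, 8, 8 and 7. Col14a1 had 5, 8, 11, 27, 2 and 10 reads, and Col9a2 had 6, 10, 3, 1, 27 and 7. In these last 2 genes 1 library, a different one for each, held 42.9% and 50% of the reads. The other 7 members had 1 to 12 reads in all. Col22a1 had 6 reads in each of libraries c and f and none in the others, and the 4 reads of Col26a1 came from library b. Such counts are too few to compare libraries.

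**Figure D5:**
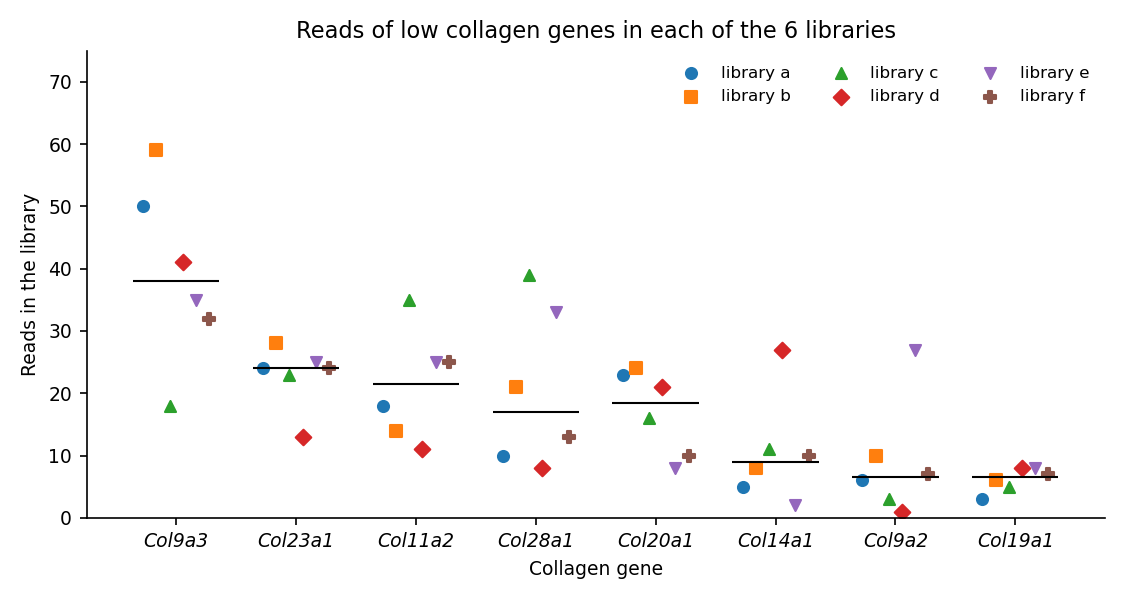
Reads (y axis) in each of the 6 libraries a to f, shown without genotype, for the 8 collagen genes with a mean under 40 and reads in every library. Horizontal bars are medians over the libraries, and single libraries stand well above the others for Col14a1 (27 reads in library d) and Col9a2 (27 reads in library e).

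Genes that modify, fold, export, cut and cross-link collagen were examined by their roles. The counts by role stand beside 56.9% of all genes in the table with a mean of at least 10. Of 15 genes for hydroxylation and glycosylation of collagen residues, 14 had a mean of at least 10, with a median of 2116 per kb over the 13 with a length. P4hb, the beta subunit of prolyl 4-hydroxylase, had a mean of 41585 (14535 per kb). Ppib, a prolyl isomerase of the endoplasmic reticulum, was the highest of this role per kb, at 19771. Colgalt2, a collagen galactosyltransferase, was the lowest at 0.912 per kb, against 2116 for its relative Colgalt1. Serpinh1, the collagen-specific chaperone HSP47, had a mean of 71806 (31577 per kb) and was the highest of the chaperones and export factors. Fkbp14, a prolyl isomerase, was the lowest per kb of the 6 of these with a length, at 185. All 8 that were matched had a mean of at least 10.

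Genes of propeptide cleavage were more uneven, and 6 of 10 had a mean of at least 10, near the 56.9% of all genes in the table. Pcolce, which enhances removal of the C-propeptide, was the highest at 11184 per kb. Bmp1, the protease it assists, was at 1115 per kb. Among the N-propeptidases, Adamts2 was at 63.6 per kb, Adamts14 at 9.73 and Adamts3 at 1.04, and Mep1b, a meprin subunit, had no reads. All 6 cross-linking genes had a mean of at least 10. Lox, the lysyl oxidase, was the highest at 4107 per kb, and Loxl2 was the lowest at 338. Of 10 receptor genes, 8 had a mean of at least 10. Itgb1, the beta chain of the collagen-binding integrins, was at 12892 per kb and was the highest. The alpha partners of Itgb1 on this list, Itga1, Itga2, Itga10 and Itga11, stood between 11.04 and 103 per kb. Other alpha chains were not listed. Lair1, an inhibitory receptor of leukocytes, had no reads.

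The label of the cells was compared with lists of cell type markers. Of 10 fibroblast markers 9 had a mean of at least 10, including Vim at 330695, Thy1 at 5164 and Pdgfrb at 4160. Pdgfra was lower, at 628, while Dcn, a proteoglycan that binds collagen fibrils, was at 144 and Lum, a related one, at 1.33. A mean of at least 10 was found for 2 of 5 endothelial, 2 of 5 macrophage, 3 of 6 epithelial, 1 of 5 skeletal muscle, 1 of 5 osteoblast and 0 of 4 neural crest and glial markers. Among all genes in the table, 56.9% had such a mean. Of the endothelial list, Kdr was at 2958 and Tek at 34.4, while Pecam1 was at 4.47, Cdh5 at 3.54 and Emcn had no reads. Of the macrophage list, Cd68 was at 257 and Csf1r at 40.1, while Ptprc was at 3.09, Lyz2 at 1.68 and Adgre1 at 0.178. Of the epithelial list, Krt18 was at 1106, Cdh1 at 67.1 and Krt8 at 26.7, while Epcam, Krt14 and Krt5 were between 1.17 and 5.12. Of the muscle list, Acta1 was at 4711 and the other genes were at 1.54 or lower, with no reads for Myod1. Sox10 was at 8.22, the highest of the neural crest and glial list. All 4 mesothelial markers had a mean of at least 10, with Upk3b at 605, Msln at 381, Wt1 at 300.3 and Lrrn4 at 109.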

How the data were processed

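RNA-Seq of 3 WT and 3 Anp32e-/- MEF cultures was examined. Per the labels, total RNA libraries were aligned with STAR to mm10, counted with Subread featureCounts and passed to DESeq2 by the authors. The signal values used are the mean column deposited by the authors, the counts of all 6 libraries divided by size factors and averaged, with 1 value for each of 42361 RefSeq transcripts. The other 5 columns of the deposited table hold the authors' own comparison (fold change, its standard error, the statistic, p and adjusted p) and were not used. Neither a total per library nor a replicate SD is in these means, so absolute depth per library is unknown and no test was run. Relative size factors of the unlabelled libraries were read from the steps of the lowest means.

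Transcripts were matched to genes with RefSeq GRCm38.p6 (163 had no gene), and the highest transcript stood for a gene. Lengths came from GENCODE transcripts of GRCm38 matched by RefSeq identifier, for 17733 of 19271 genes with reads and for all 44 members. The Col4a1 transcript used is noncoding in RefSeq, and GENCODE gives it a coding frame. Members with a mean of at least 10 are named with their level and the others with their mean or as having no reads. Of the assembly genes, the highest and lowest per role and Serpinh1, P4hb and Lox are named by rule, and the rest, with the markers, as examples chosen after their values were seen. Members and lists were chosen with earlier results of these data known. Means under 40 were split into whole reads with a tolerance of 3e-13, and 145 of 145 simulated sets of reads were recovered. Intervals are from scipy 1.17.1, sums were made in pandas 2.3.3 under Python 3.11.15, and the alternatives tried are given with their effect at the end.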

Additional observations from a re-analysis of the deposited data

How the results depend on the processing

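The 33 genes with a mean of at least 10 became 35 with a minimum of 3, 27 with a minimum of 50, 33 with the longest transcript and 31 without X-linked genes. The 6 genes in the highest 10% became 4 among genes with a mean of at least 10, and 13 without division by length. With coding length the shares were 55.7% fibrillar, 24.5% network, 4.998% FACIT, 12.1% beaded, 0.0549% membrane, 2.73% other and 10.999% for Col1a1 alone. Without division by length they were 56.6%, 19.8%, 8.61%, 12.6%, 0.0371%, 2.48% and 10.8%. With the longest transcript the first 4 were 55.9%, 22.4%, 5.89% and 12.7%, the other genes held 3.02%, and Col1a1 held 11.4%, from 11.3% as reported. The order of the classes was the same under each of these.

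Ratios under coding length were 1.05 for Col1a1 to Col1a2, 3.56 for Col5a2 to Col5a1, 2.33 for Col4a1 to Col4a2, 24.5 for Col8a1 to Col8a2 and 2.37 for Col6a1 to Col6a2. The coding length used for Col4a1, 4686 bases against 5121 for Col4a2, is that of the transcript that RefSeq calls noncoding. Without division by length the first 2 were 1.11 and 2.90, and the last 2 were 26.1 and 2.35. With the longest transcript Col4a1 to Col4a2 was 2.08, and Col6a1 to Col6a2 rose to 3.49, since the longer Col6a2 transcript has the lower mean. The ratios of Col2a1 to Col11a1 (0.944) and Col6a1 to Col6a3 (0.742) turned without division by length, and that of Col1a1 to Col1a2, 0.999 as reported, passed to the other side of 1 both without division and under coding length. Medians of classes on the log2 scale (pseudocount 1) moved most where members have few reads, as in the beaded class, from 5.19 to 4.01 with a pseudocount of 0.1 and to 10.5 without members under 10. At a tolerance 10 times wider, 14 of 15 low members still gave 1 set of reads.

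No paired analysis was possible because the values are means over all 6 libraries, and for the same reason no replicate was left out. Levels per kb rest on 1 annotated transcript per gene, and counting error is the only error given. Depth limits the 9 members with a mean under 10 and the 2 with no reads.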
